A study of Mus musculus with 6 samples.

Results

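The genes described here are 9 genes of the red blood cell lineage, measured in endothelial cells sorted from the bone marrow of diabetic and nondiabetic mice: Hemgn, Car1, Car2, Epor, Klf1, Gata1, Alas2, Slc4a1 and Tfrc. A member was measured where a probe set names it and no other gene, with the brightest such probe set taken by its mean over the 6 arrays. This held for 8 of the 9 genes, out of 22180 genes measured in all, and each of the 8 had a single probe set. The only probe set for Alas2 also names its neighbour Apex2 and is given apart. All 8 passed the filter on dim genes, a mean log2 value of at least 5.07, so all 8 were tested.

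The diabetic group held 3 arrays from male C57BL/6J mice with type 2 diabetes brought on by a diet with 60 kcal% fat, eaten for 4 months, and the nondiabetic group held 3 arrays from male C57BL/6J control mice. The labels carry that diet text on all 6 samples, and the diet of the nondiabetic mice is therefore not clear from them. Each sample was a FACS sort of 5000 cells, and the labels give neither the sorting markers nor the number of mice behind an array. Each p-value therefore rests on the spread among these arrays alone, and that spread may be technical. The number of arrays limits the precision. The comparison asked what diabetes changes in the RNA of marrow endothelial cells, and the series title ties these cells to myelopoiesis.

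Red blood cells arise in the marrow from progenitors that divide and mature under erythropoietin, whose receptor is Epor, and under the transcription factors Gata1 and Klf1, which switch on globin, heme synthesis and membrane genes. The maturing cells take up iron through the transferrin receptor, build heme with Alas2 at its first step, and fill with carbonic anhydrase and the anion exchanger Slc4a1, which together carry carbon dioxide. Several of these genes are not exclusive to the lineage: Gata1 also acts in megakaryocytes, basophils, mast cells and eosinophils, Hemgn is active in stem and progenitor cells, Car2 occurs in many tissues, and dividing cells of all kinds carry Tfrc. Since the samples are bulk RNA of sorts, fewer cells of a type and less RNA per cell cannot be told apart. Levels of different probe sets are not comparable on an array, so each gene is compared with itself between arrays.

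Among the 8 tested genes Hemgn had the largest difference between the groups, with lower values in all 3 diabetic arrays, and none of the 8 passed the test over all genes. The limma adjusted p was 0.997 for each of the 8, and over all 13308 genes the test called 1 gene, Rabggtb, or 0.00751%. At an unadjusted p under 0.05 the count was 1 of the 8 members, Hemgn, against 4.25% of all tested genes. The median difference of the 8 members, diabetic minus nondiabetic, was -0.02 on the log2 scale, with 4 higher and 4 lower values, and the median of all tested genes was 0.02. Without Hemgn, the 7 others lay between -0.15 and 0.19 with a median of 0.05. Leaving out diabetic replicate 2 or nondiabetic replicate 2 turned the sign of Car1 (to 0.17 and 0.16) and of Car2 (to 0.08 and 0.01), and the signs of Klf1, Slc4a1 and Tfrc also turned when certain single arrays were left out. Hemgn was put among these genes with its lower values already known, so its difference is a description.

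**Figure D1:**
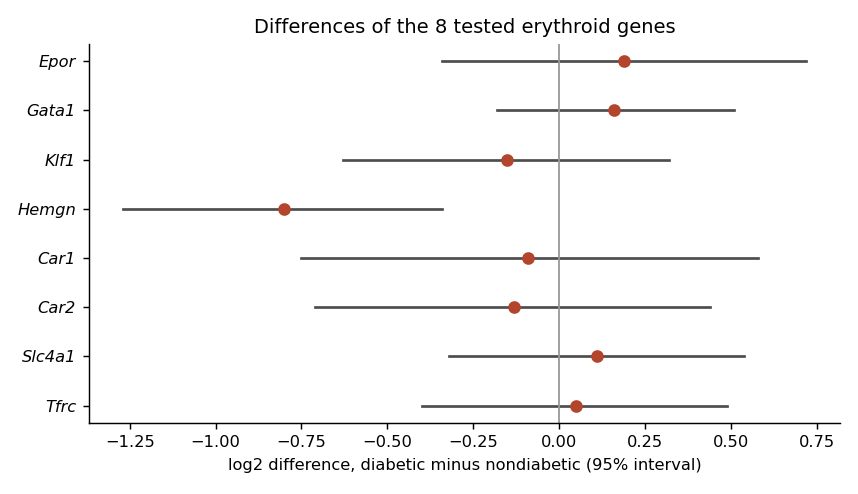
Differences of the 8 tested erythroid genes, diabetic minus nondiabetic, on the log2 scale (x axis), 1 row per gene, with points at the limma estimate and lines for the unadjusted 95% interval. The interval of Hemgn runs from -1.27 to -0.34 and leaves out 0, while those of the other genes include 0.

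Epor, the receptor through which erythropoietin keeps erythroid progenitors alive, had log2 values of 6.32, 5.90 and 6.38 in the diabetic arrays and 6.40, 5.66 and 5.98 in the nondiabetic arrays. The groups overlapped, with the highest and the lowest value both nondiabetic. The difference was 0.19 (SE 0.23), with an interval of -0.34 to 0.72. Of the genes that carry or curb its signal, 13 were tested, 0 passed in either direction, and 7 had higher and 6 lower values with a median difference of 0.01. Ptpn6, a phosphatase that shuts off the receptor's signal, stood at 7.94 ± 0.08 in diabetic and 7.69 ± 0.17 in nondiabetic arrays (SD, n = 3 each), a difference of 0.25 (SE 0.16). Its groups did not overlap, but the lowest diabetic and the highest nondiabetic value both rounded to 7.87. The adaptor and ubiquitin ligase gene Cbl differed by 0.17 (SE 0.15), and Jak2, the kinase bound to the receptor, by 0.05 (SE 0.21).

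Gata1, the zinc finger factor required for red cell maturation, had log2 values of 5.31, 5.32 and 5.56 in the diabetic arrays and 5.14, 5.29 and 5.26 in the nondiabetic arrays. The lowest diabetic array lay above the highest nondiabetic array, by a gap smaller than the SD of either group, and 5.28% of all tested genes had their groups apart in this direction. The difference was 0.16 (SE 0.15) with an interval of -0.18 to 0.51, and its mean of 5.31 was the nearest of the 8 to the limit of 5.07 for dim genes. Klf1, the factor that drives the adult beta globin gene, had values of 6.03, 6.14 and 6.33 in the diabetic arrays and 6.30, 6.67 and 5.97 in the nondiabetic arrays. The nondiabetic arrays held both its highest and its lowest value, and the difference was -0.15 (SE 0.21) with an interval of -0.63 to 0.32.

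Of other transcription factors and cofactors of blood cells, 11 were tested, 0 passed, 7 had higher and 4 had lower values, and the median difference was 0.03. Cbfa2t3, a corepressor that works with Gata1 and Tal1, stood at 7.38 ± 0.18 in diabetic and 6.95 ± 0.36 in nondiabetic arrays (SD, n = 3 each), a difference of 0.42 (SE 0.21) with overlapping groups. Runx1, a factor of blood stem cells and megakaryocytes, differed by 0.29 (SE 0.26). Ldb1, which bridges Gata1 complexes at distant sites, had the highest mean of the list and differed by -0.01 (SE 0.16).

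Hemgn, which encodes hemogen, a nuclear protein of blood progenitors and erythroid precursors, had log2 values of 6.30, 5.76 and 5.65 in the diabetic arrays and 6.80, 6.74 and 6.59 in the nondiabetic arrays. All 3 diabetic arrays lay below all 3 nondiabetic arrays, and diabetic replicate 1 was the nearest to them. The gap, from 6.30 to 6.59, was smaller than the diabetic SD and larger than the nondiabetic SD. The means were 5.90 ± 0.35 in diabetic and 6.71 ± 0.11 in nondiabetic arrays (SD, n = 3 each), which is 0.573-fold, and the difference was -0.80 (SE 0.20) with an interval of -1.27 to -0.34. Its rank by p was 38 of 13308 genes (limma adjusted p = 0.997). The share of all tested genes with all diabetic arrays below all nondiabetic arrays was 2.67%, and Hemgn was the only member among them. The difference was -1.0 without diabetic replicate 1 and -0.68 without diabetic replicate 3, the extremes over 15 alternatives, and its adjusted p was 0.396 or more in each.

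Promoter sequences are shown for Hemgn and for 2 members that differed less between the groups, Epor and Klf1, because Gata1 and Klf1 act on erythroid promoters through the motifs GATAA and CACCC. Each is the 250 bases before the start of the gene from RefSeq, build GRCm38.p6, written 5′ to 3′ on the gene's strand. Capitals mark GATAA and CACCC, which read TTATC and GGGTG where they lie on the other strand.
Hemgn (chr4:46404184-46404433, minus strand): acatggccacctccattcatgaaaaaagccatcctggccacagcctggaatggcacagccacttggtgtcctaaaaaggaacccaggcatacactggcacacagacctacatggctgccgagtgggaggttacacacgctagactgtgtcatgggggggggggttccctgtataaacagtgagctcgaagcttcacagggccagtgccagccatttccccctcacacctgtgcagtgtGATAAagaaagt
Epor (chr9:21963577-21963826, minus strand): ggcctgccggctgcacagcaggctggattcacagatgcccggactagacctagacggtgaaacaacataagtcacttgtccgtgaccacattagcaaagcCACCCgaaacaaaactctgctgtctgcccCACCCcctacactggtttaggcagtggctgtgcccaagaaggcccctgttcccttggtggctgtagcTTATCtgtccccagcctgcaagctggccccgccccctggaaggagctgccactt
Klf1 (chr8:84901732-84901981, plus strand): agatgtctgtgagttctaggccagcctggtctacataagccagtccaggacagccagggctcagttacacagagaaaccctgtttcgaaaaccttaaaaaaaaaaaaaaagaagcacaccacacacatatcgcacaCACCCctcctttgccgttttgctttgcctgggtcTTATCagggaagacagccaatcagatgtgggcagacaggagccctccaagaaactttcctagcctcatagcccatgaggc
The Hemgn promoter held 1 GATAA, whose first base lies 12 bases before the start, and 0 CACCC. The Epor promoter held 1 GATAA on the other strand, at 54 to 50 bases before the start, and 2 CACCC. That of Klf1 held 1 GATAA on the other strand, at 80 to 76 bases before the start, and 1 CACCC. The RefSeq table matched 6 of the 9 members: these 3, Alas2, Gata1 and Tfrc. GATAA occurred on either strand in 4 of the 6 and CACCC in 5 of the 6, against 22.6% and 52% of all 32851 promoter windows of the same length. Members were counted by gene, with a motif in any of its windows, and the shares are of single windows. Only Tfrc had more than 1 window, each with CACCC and without GATAA. A match is a description of the letters only, and the 2 motifs did not overlap each other in these windows.

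The carbonic anhydrases Car1 and Car2, enzymes that convert carbon dioxide to bicarbonate in red cells, varied more between arrays than between groups. Car1 had log2 values of 9.81, 9.08 and 9.85 in the diabetic arrays and 9.57, 10.15 and 9.27 in the nondiabetic arrays. Car2 had values of 8.97, 8.09 and 8.48 in the diabetic arrays and 8.61, 8.93 and 8.40 in the nondiabetic arrays. Both genes were lowest in diabetic replicate 2, next lowest in nondiabetic replicate 3, and above their own mean in diabetic replicate 1 and nondiabetic replicate 2. The difference was -0.09 (SE 0.29, interval -0.75 to 0.58) for Car1 and -0.13 (SE 0.25, interval -0.71 to 0.44) for Car2. With array weights it was -0.40 for Car1 and -0.41 for Car2, neither of which passed the test. The within-group SD was 0.44 for Car1 and 0.37 for Car2, larger than in 87.9% and 78.8% of tested genes.

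The other carbonic anhydrases were tested for 9 genes, of which 0 passed, 3 had higher and 6 had lower values in diabetic arrays, and the median difference was -0.11. Car5b, a mitochondrial form, stood at 5.62 ± 0.36 in diabetic and 6.30 ± 0.32 in nondiabetic arrays (SD, n = 3 each), a difference of -0.68 (SE 0.24) with groups that overlapped by a single pair of arrays. Car7, a cytosolic form, had values of 7.15, 7.14 and 6.74 in the diabetic arrays and 7.37, 7.71 and 7.42 in the nondiabetic arrays, with no overlap and a difference of -0.49 (SE 0.18). Car3, named for its place between Car1 and Car2 on the chromosome and not by the rule for named genes, was left out as dim, at 4.88 ± 0.05 in diabetic and 4.85 ± 0.13 in nondiabetic arrays (SD, n = 3 each).

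Slc4a1, the band 3 anion exchanger of the red cell membrane, had log2 values of 5.69, 6.04 and 5.62 in the diabetic arrays and 5.82, 5.79 and 5.42 in the nondiabetic arrays. The groups overlapped, and the difference was 0.11 (SE 0.19) with an interval of -0.32 to 0.54. Of other membrane and skeleton genes, 12 were tested, 0 passed, 6 had higher and 6 lower values, and the median difference was 0.06. Xk, a membrane protein that carries a blood group antigen in humans, stood at 5.95 ± 0.23 in diabetic and 5.56 ± 0.03 in nondiabetic arrays (SD, n = 3 each), a difference of 0.39 (SE 0.17) with no overlap. Rhd, of the Rhesus complex, differed by -0.29 (SE 0.19), and Slc2a1, a glucose transporter of human red cells that endothelium also carries, had the highest mean of the list, at 8.52 ± 0.19 in diabetic and 8.36 ± 0.15 in nondiabetic arrays (SD, n = 3 each).

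The probe set shared by Alas2, the erythroid enzyme that starts heme synthesis, and Apex2, a DNA repair gene, had log2 values of 4.41, 4.49 and 5.55 in the diabetic arrays and 4.50, 4.96 and 4.62 in the nondiabetic arrays. Only diabetic replicate 3 lay above 5.07, the limit for dim genes, and the 2 genes' shares of this signal cannot be told apart. Of the later enzymes and carriers of heme synthesis 10 were tested, 0 passed, 6 had higher and 4 lower values, and the median difference was 0.11. Urod, the uroporphyrinogen decarboxylase, had values of 7.09, 6.89 and 7.15 in the diabetic arrays and 6.27, 6.52 and 6.56 in the nondiabetic arrays. Its groups did not overlap, and the difference was 0.59 (SE 0.16), or 1.5-fold (limma adjusted p = 0.997). Abcb10, a mitochondrial transporter needed for hemoglobin production, differed by 0.25 (SE 0.14), also without overlap, and Tmem14c, a porphyrin carrier, by -0.06 with overlap.

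Tfrc, the transferrin receptor that brings iron into the cell, had log2 values of 7.29, 7.09 and 7.36 in the diabetic arrays and 7.07, 7.55 and 6.98 in the nondiabetic arrays. Both its highest and its lowest value were nondiabetic, and the difference was 0.05 (SE 0.19) with an interval of -0.40 to 0.49. Of other iron genes 8 were tested, 0 passed, 5 had higher and 3 lower values, and the median difference was 0.04. Erfe, the hormone by which erythroblasts lower hepcidin, stood at 6.70 ± 0.07 in diabetic and 7.0 ± 0.13 in nondiabetic arrays (SD, n = 3 each), with no overlap and a difference of -0.30 (SE 0.15). Slc25a37, the mitochondrial iron importer mitoferrin, differed by -0.49 (SE 0.25) with overlap, and Fth1, the ferritin heavy chain, by 0.06.

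**Figure D2:**
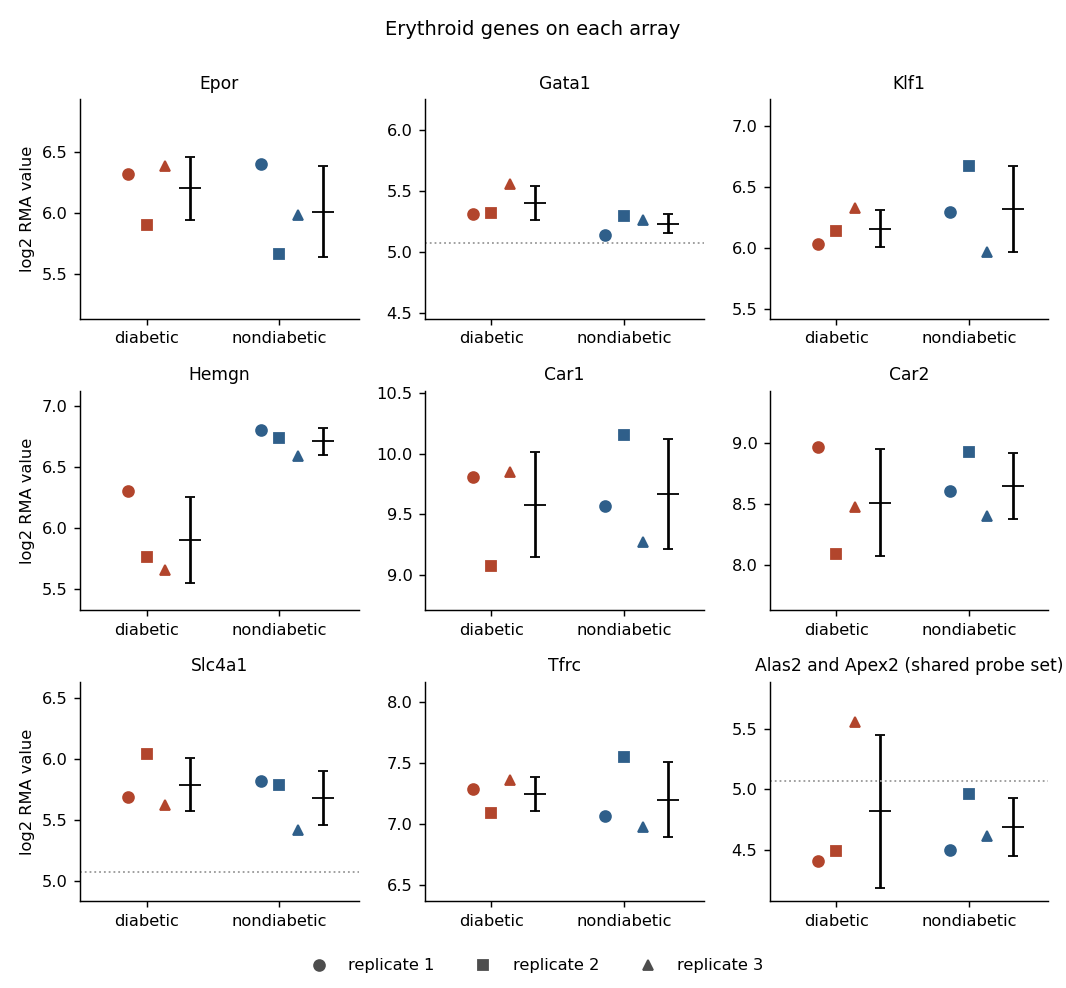
Log2 RMA value (y axis, each panel spanning the same width on its own level) of each member on the diabetic (left) and nondiabetic (right) arrays, with symbols for replicates 1 to 3 and black bars for the mean and SD of a group. The dotted line, where in range, is the limit of 5.07 for dim genes. The groups are apart in the Hemgn panel, from 5.65 to 6.30 in diabetic and from 6.59 to 6.80 in nondiabetic arrays, just apart in the Gata1 panel, and overlap in the others.

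Adult globin transcripts, the most abundant product of late erythroid cells, were read only by probe sets that name several globin genes, so they stood outside the tests and are given as levels. The brightest of them, beta globin probe set 17481232, had log2 values of 10.68, 9.06 and 10.56 in the diabetic arrays and 10.28, 10.65 and 7.92 in the nondiabetic arrays. A second beta globin probe set, 17494221, had 9.18, 8.04 and 9.07 in the diabetic arrays and 8.22, 9.46 and 6.10 in the nondiabetic arrays. The alpha globin probe set 17248276 had 9.95, 8.53 and 9.37 in the diabetic arrays and 9.30, 9.62 and 7.73 in the nondiabetic arrays. In all 3, nondiabetic replicate 3 was the lowest array and diabetic replicate 2 the next. The span between the lowest and the highest array was 6.79-fold, 10.2-fold and 4.67-fold, and the within-group SD exceeded that of 99.3% or more of tested genes.

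The remaining globin probe sets differed from each other. The beta globin probe set 17494228 had the same 2 lowest arrays at a lower level, 5.39 ± 0.36 in diabetic and 5.26 ± 0.60 in nondiabetic arrays (SD, n = 3 each), and the alpha globin probe set 17248263 spanned only 1.24-fold and was not low in nondiabetic replicate 3. The embryonic globins Hbb-y, Hbb-bh1 and Hba-x were dim, as were Trim58 and Trim10, ubiquitin ligase genes of late erythroid cells. These 5 were named after their values were seen. The 6 tested genes of the late erythroid list had 3 higher and 3 lower values, 0 that passed and a median difference of -0.03. Prdx2, the main peroxiredoxin of red cells, differed by -0.25 (SE 0.26), Blvrb, a biliverdin reductase, by -0.25 (SE 0.30), and catalase (Cat), the brightest of the list, by -0.12 (SE 0.24).

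The members did not share a single order of the arrays. Diabetic replicate 2 and nondiabetic replicate 3 were the lowest 2 arrays for 4 of the 5 globin probe sets and for 2 of the 8 members, Car1 and Car2, while 7.57% of all tested genes had this order. Both lay among the lower 3 arrays for 5 members, Epor, Klf1 and Tfrc besides the carbonic anhydrases, against 25.8% of tested genes. Hemgn, Gata1 and Slc4a1 did not have it. The pair of arrays was picked out from these same globin, Car1 and Car2 values, and the globin probe sets overlap in the genes they name. These shares are therefore a description and no test. In nondiabetic replicate 3 Hemgn stood at 6.59, the lowest of its nondiabetic values, and its relation to globin was not tested.

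Likeness was measured as the root mean square difference between 2 genes' log2 values, each centred on its mean over the 6 arrays. All genes of these arrays share the same 6 sorts, and a gene that varies little lies near other flat genes. The centring runs over both groups, so the measure holds the difference between the groups. Genes near Hemgn are therefore bound to be lower in diabetic arrays, and members with little difference to lie farther from it. Between Car1 and Car2 the measure was 0.19. Among 13307 other tested genes Car2 had rank 78 by likeness to Car1, Tfrc rank 125 at 0.21 and Klf1 rank 519 at 0.26. The other members lay farther from Car1: Gata1 at 0.35, Slc4a1 at 0.43, Epor at 0.45 and Hemgn at 0.50. The median tested gene was at 0.41 from Car1. From Hemgn the nearest member was Car2 at 0.39, with rank 1542, and the others lay at 0.46 to 0.58, where the median tested gene was at 0.50. Members and predicted or small RNA genes aside, the 5 genes most like Hemgn were BC055324, Pcdhb17, Usp6nl, Tmem47 and Filip1, at 0.13 to 0.15, with differences of -0.78 to -0.55 between the groups. With the same genes passed over, the nearest to Car1 were Gars, Eif4h, Dip2a, Kiz and Rab13, at ranks 2, 3, 4, 7 and 8 and at 0.10 to 0.12, with differences of -0.21 to -0.01.

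**Figure D3:**
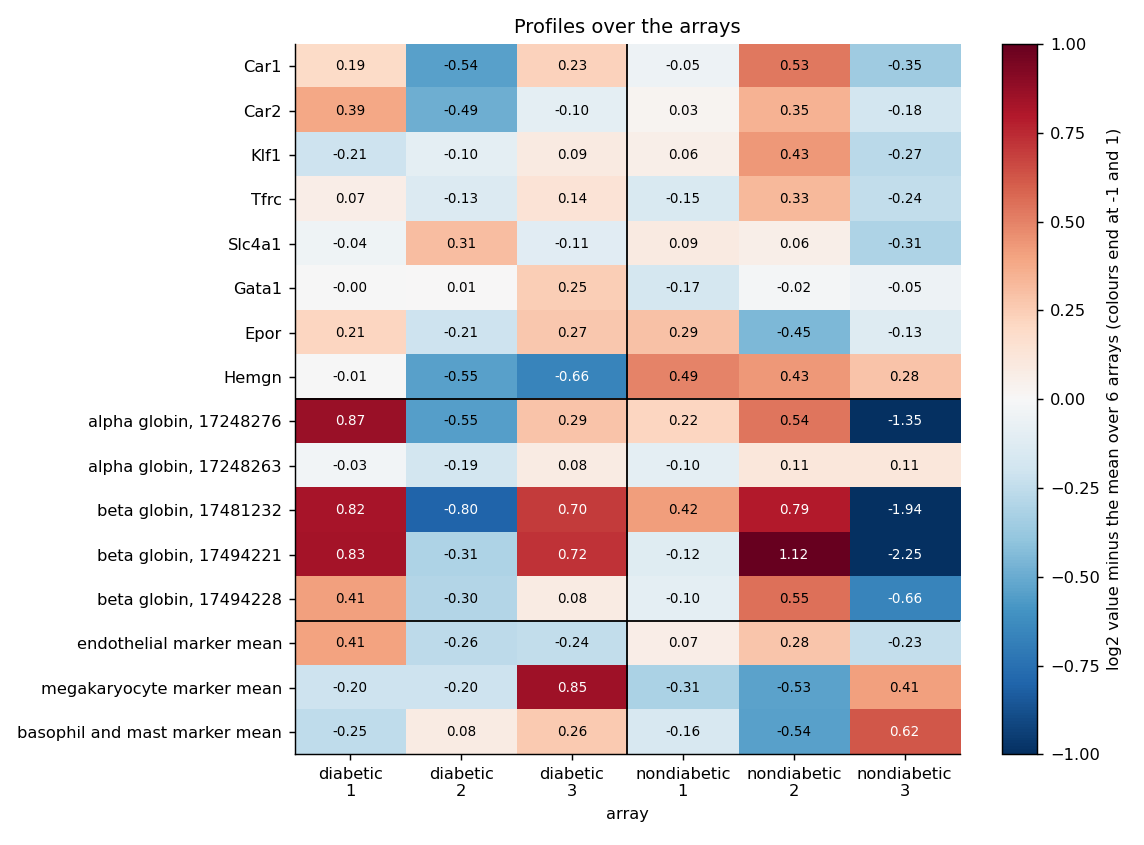
Log2 values of the 8 members, the 5 globin probe sets (with their numbers) and the means of 3 marker lists (rows) on each array (columns, diabetic left of the black line), each minus its own mean over the 6 arrays; colours end at -1 and 1. Car1, Car2 and 4 of the 5 globin probe sets have their 2 lowest values in diabetic replicate 2 and nondiabetic replicate 3, whereas Hemgn is low in diabetic replicates 2 and 3 and high in all nondiabetic arrays.

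The endothelial label of the sorts was set beside 18 pan-endothelial markers, all measured and above the limit for dim genes. Many markers of other blood cells, described below, also lay above that limit, so passing it cannot check the label. Their mean log2 level ran from 8.91 to 9.58 in diabetic and from 8.94 to 9.45 in nondiabetic arrays, and Cdh5, the endothelial cadherin, had the highest mean, at 10.88 ± 0.43 in diabetic and 10.98 ± 0.22 in nondiabetic arrays (SD, n = 3 each). Of the 18 markers 5 had higher and 13 lower values in diabetic arrays, with a median difference of -0.07. Sox17, a factor of arterial endothelium, was the only 1 of the 18 with groups apart, against 1058 of all 13308 tested genes in either direction. Sox17 was lower in all 3 diabetic arrays and differed by -0.45 (SE 0.18), and Ptprb, an endothelial phosphatase, differed by -0.28 (SE 0.21). Diabetic replicate 1 had the highest endothelial mean. Diabetic replicate 2, diabetic replicate 3 and nondiabetic replicate 3 had the lowest, nearly equal at 8.91, 8.93 and 8.94. Car2 followed this mean closely, at a root mean square difference of 0.12, and 0.978% of the 13290 tested genes outside the list were nearer. The same distance was 0.23 for Tfrc, 0.27 for Car1, 0.30 for Klf1 and 0.31 for Slc4a1. For Gata1 it was 0.33, for Hemgn 0.38 and for Epor 0.39, against 0.32 for the median gene. With the endothelial mean as a covariate, the difference was -0.75 for Hemgn, against -0.80 without it, and the signs of the other members stayed the same.

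Markers of other blood cells that also carry some of these genes were present. Of 12 megakaryocyte markers 9 were measured and tested, all with a higher mean in diabetic arrays, by 0.03 to 1.09. Of these, 0 had all diabetic arrays above all nondiabetic arrays, against 5.28% of all tested genes. Their mean level ran from 8.0 to 9.05 in diabetic and from 7.67 to 8.61 in nondiabetic arrays. In both groups replicate 3 had the highest mean level. Tubb1, a platelet tubulin, differed by 1.09 (SE 0.40), Gp6, a collagen receptor of platelets, by 0.58 (SE 0.39) and the platelet chemokine gene Ppbp by 0.07 (SE 0.31). Of 10 basophil and mast cell markers 9 were tested, 7 with higher and 2 with lower values, and their mean level was 8.95 to 9.46 in diabetic and 8.66 to 9.82 in nondiabetic arrays. Hdc, which makes histamine, differed by 0.20, Ms4a2, a chain of the IgE receptor, by -0.14, and the protease gene Prss34 by 0.11. Of 9 eosinophil markers 5 were tested, 2 with higher and 3 with lower values, at a mean level of 6.78 to 7.51 in diabetic and 7.12 to 7.94 in nondiabetic arrays. Epx, the eosinophil peroxidase, differed by -0.90 (SE 0.36) with overlap, Siglecf, a surface lectin, by 0.32 (SE 0.18) with all diabetic arrays higher, and Prg2, a granule protein, by -0.29 (SE 0.22). For Siglecf the lowest diabetic value was 5.33 and the highest nondiabetic value 5.32. The 11 tested stem and progenitor markers ran from 6.83 to 7.18 in diabetic and from 6.96 to 7.07 in nondiabetic arrays, with 5 higher and 6 lower values. Myb, a factor of progenitors, differed by 0.44 (SE 0.16), Mecom, a stem cell factor that endothelium also carries, by -0.76 (SE 0.35) and Cd34, which endothelium carries too, by -0.13 (SE 0.22). The mean of the 10 tested neutrophil and monocyte markers ran from 7.70 to 7.90 in diabetic and from 7.19 to 7.52 in nondiabetic arrays. This mean was higher in all 3 diabetic arrays, and 9 of the 10 markers had a higher diabetic mean. Only 1 of the 10, Ccr2, had all diabetic arrays above all nondiabetic arrays, against 5.28% of all tested genes. The log2 of the markers' summed unlogged values overlapped, at 12.15 to 12.57 in diabetic and 11.84 to 12.26 in nondiabetic arrays. Ccr2, a chemokine receptor of monocytes, differed by 0.50 (SE 0.18), S100a9 of neutrophils by 0.58 (SE 0.23) and Ly6c2 of monocytes by 0.33 (SE 0.25). The 5 tested B cell markers, 2 with higher and 3 with lower values, ran from 6.24 to 6.55 in diabetic and from 6.05 to 6.34 in nondiabetic arrays. Among them Cd79a and Cd79b, chains of the B cell receptor, differed by 0.94 (SE 0.47) and 0.46 (SE 0.27), and the factor Ebf1 by -0.23 (SE 0.19). Cd79a stood at 7.15 in diabetic replicate 1, while the other diabetic arrays had 5.15 and 5.32 and the nondiabetic arrays 4.92, 4.83 and 5.05. The groups of Cd79b overlapped. Of 6 markers of osteoclasts, which also carry Car2, 4 were dim, and Acp5 and Ocstamp differed by -0.26 and -0.11. None of these genes passed the adjusted test. The part of these cells in the values of the members was not tested.

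**Figure D4:**
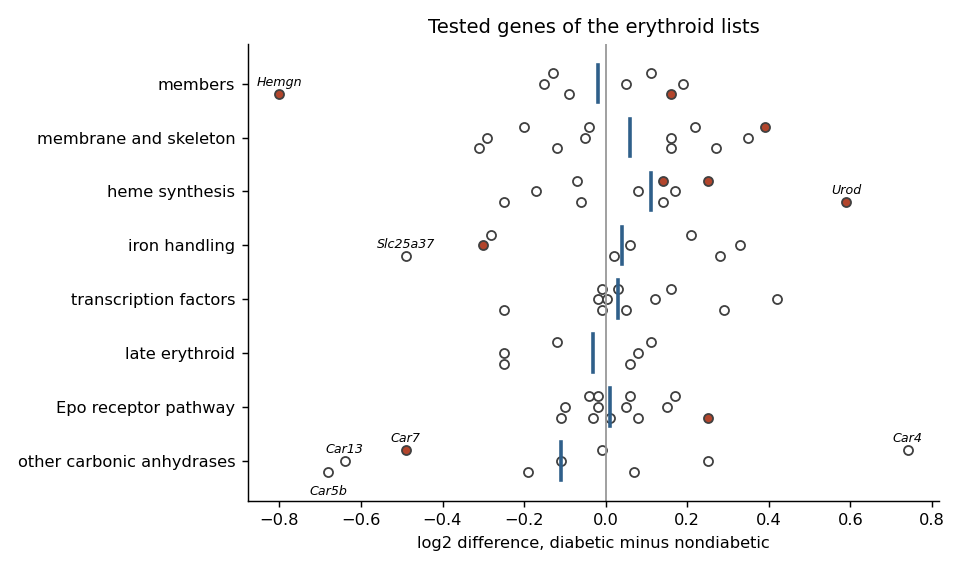
Log2 difference, diabetic minus nondiabetic (x axis), of each tested gene of the members and of 7 related lists (rows); filled points are genes whose groups do not overlap and blue bars are list medians. Hemgn at -0.80, Car4 at 0.74, Car5b at -0.68, Car13 at -0.64 and Urod at 0.59 lie farthest out; Car4 and Car13 were named after their values were seen.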

How the data were processed

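Male C57BL/6J mice gave 6 samples of 5000 sorted bone marrow endothelial cells, 3 diabetic and 3 nondiabetic, and biotin-labelled RNA, amplified by the Ovation Pico WTA System, was put on arrays, per the labels' protocols. The authors deposited log2 values from RMA, the robust multi-array average method, which the submitters' processing notes name. This method removes background, brings all arrays to 1 distribution and joins probes into probe sets. The software behind it is not given in the sources used here. Probe sets were named from the platform's annotation, possibly outdated: 23521 of 41345 probe sets named 1 gene and 1814 named several. For each gene the brightest probe set that names it alone, by the mean over 6 arrays, was used, and genes with a mean under the 40th percentile (log2 5.07) were left out as dim. The remaining 13308 genes were fitted with limma 3.58.1 in R 4.3.3 (lmFit, eBayes, no covariate). Adjustment followed Benjamini and Hochberg over all tested genes, with a threshold of 0.05, and intervals are 95% and unadjusted. The procedure was tested on simulated data.

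The members and gene lists were chosen with earlier results of these data known, and Hemgn was already known to be lower in the diabetic arrays. Genes named beyond the members were, in each list, the 2 tested genes with the smallest p and the gene with the highest mean, and the 5 genes most like Hemgn and Car1 after passing over members and predicted or small RNA genes; exceptions are pointed out. Likeness was the root mean square difference between log2 values centred on each gene's mean over the arrays. Of 188 entries in 15 other lists, 163 were measured. Alternatives were other filters on dim genes, the mean of probe sets, quantile normalization again, median centring, trended robust variances, weighting of arrays, a replicate block, an endothelial covariate and leaving out each array. Same-numbered samples did not deviate together: the correlations of their deviations from the group means, across genes, were -0.04, -0.06 and 0.02 for replicates 1, 2 and 3.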

Additional observations from a re-analysis of the deposited data

How the results depend on the processing

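Of the 8 members, 0 were called under any of the 15 alternatives, and 1 gene was called over all genes except with the filter at the 60th percentile (0 genes, 1 being lost as dim) and without nondiabetic replicate 3 (0 genes); over the arrays left out in turn the count ran from 0 to 1. At an unadjusted p under 0.05 these 2 fits held 370 and 688 genes, against 566 in the main setting and 1132 with array weights. The filter at the 60th percentile also left out Gata1 and Slc4a1. Hemgn kept its sign and an unadjusted p under 0.05 under all 15, from -1.0 to -0.68, and Epor (0.01 to 0.38) and Gata1 (0.08 to 0.21) kept theirs. The replicate block gave -0.80 for Hemgn (adjusted p = 0.998) and 1 gene called, and changed no call. Signs turned for the members near 0, and the cause was not tested: Tfrc to -0.0046 with arrays centred on their median, -0.06 with array weights, -0.01 without diabetic replicate 3, -0.02 without nondiabetic replicate 1 and -0.06 without nondiabetic replicate 3; Car1 to 0.17, Car2 to 0.08 and Slc4a1 to -0.02 without diabetic replicate 2; Car1 to 0.16, Car2 to 0.01 and Klf1 to 0.03 without nondiabetic replicate 2; Slc4a1 to -0.02 without nondiabetic replicate 3. With each array left out in turn, the differences ran from -0.28 to 0.17 for Car1, -0.36 to 0.08 for Car2, -0.33 to 0.03 for Klf1, -0.02 to 0.19 for Slc4a1 and -0.06 to 0.22 for Tfrc. Array weights gave -0.40 for Car1 and -0.41 for Car2. The median of the members ranged from -0.16 to 0.10. Gata1 and the probe set of Alas2 lay near the limit for dim genes, where a signal may be background alone.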

Other observations

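Among the other carbonic anhydrases, 2 genes named after their values were seen varied widely between single arrays. Car4, a membrane-bound form of capillary endothelium, stood at 8.03 in diabetic replicate 1, where the other diabetic arrays had 5.95 and 5.35 and the nondiabetic arrays 5.33, 6.56 and 5.23. Car8, which lacks the catalytic activity, had 7.94, 6.34 and 5.15 in the diabetic arrays and 5.92, 8.0 and 6.07 in the nondiabetic arrays. Both genes were highest in diabetic replicate 1 and nondiabetic replicate 2, the 2 arrays with the highest endothelial marker means, 9.58 and 9.45. Kel, a red cell membrane gene left out as dim and also named after its values were seen, had 5.26, 5.08 and 5.03 in the diabetic arrays and 4.66, 4.63 and 4.30 in the nondiabetic arrays, with no overlap.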
